A study of Mus musculus with 18 samples.

Results

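The comparison described here sets undifferentiated adult stem cells of the Stra8-EGFP/Rosa26 background (called adult Stra8) against undifferentiated adult stem cells of the 129SV background (adult 129SV), with 3 arrays in each group. Its members are all genes that the array names singly. Of 35556 probe sets 21789 carry 1 gene symbol, 1621 carry several and 12146 carry none, and the first of these give 19938 genes, each read by its brightest probe set. The study holds 18 Affymetrix Mouse Gene 1.0 ST arrays in 6 groups of 3, and its title asks how similar the transcriptomes of embryonic stem (ES) cells and adult germline stem cells are. The 6 arrays of ES 129SV and ES Stra8 cells, which share no array with the adult comparison, show whether a difference between the backgrounds was also present in ES cells.

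The labels call the adult 129SV samples by the genetic background 129SV and give them no transgene. Adult Stra8 samples carry Stra8-EGFP and Rosa26 in the name of their background. Stra8-EGFP names a transgene in which the Stra8 promoter drives a green fluorescent protein, and Rosa26 is a broadly active locus often used to carry reporters, but the labels do not say which allele sits there or which strain the mice had. Each group consists of 3 samples called biological replicates, and all 3 adult Stra8 samples bear the same cell name, SSC15. Whether several lines, several cultures or feeder cells stand behind a group is not given, so line, culture, cell mix and genetic background cannot be told apart in any difference below. Likewise the p-values measure only the spread among these samples.

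Adult germline stem cells grow from spermatogonial stem cells of the testis, and in culture some lines take on the pluripotent state of ES cells, with Pou5f1, Nanog and Sox2 active. ES-like cultures are mixtures: cells can drift towards primitive endoderm, trophectoderm or mesoderm, can activate part of the germline program, and often share the dish with fibroblast feeder cells. Inbred strains also differ in sequence and in gene expression, so cell lines of different backgrounds differ even in the same state.

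Values are log2 signals, in which a difference of 1 is 2-fold, and each difference is the mean of adult Stra8 minus the mean of adult 129SV ± the standard error (SE) of the limma fit. A difference counts as called where its adjusted p lay under 0.05 (limma, Benjamini-Hochberg over all 19938 genes). Arrays correlated with the other arrays of their own group at a mean r of 0.995 to 0.998 over genes and with the other group at 0.969 to 0.973. The median SD of a gene over 3 arrays was 0.0939 in adult 129SV and 0.0705 in adult Stra8. The limma fit takes its spread from all 6 groups of the study, not from these 2 alone. By it 10173 genes were called, which is 51.0% of those tested, and small differences make up most of them: the quartiles of all differences lay at -0.26 and 0.19, around a median of -0.08. Of all genes 24.2% were called higher in adult Stra8 and 26.8% lower. These shares are what the counts in the gene lists below are read against. A difference of at least 2-fold was reached by 708 higher genes (3.55%) and by 266 lower genes (1.33%), and at least 4-fold by 49 and 11. The 3 arrays of each group did not overlap for any of these 974 genes. Over all genes, the arrays did not overlap in 26.9% with adult Stra8 higher and in 33.2% with it lower.

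The labelled cell types were first read from marker genes. All 7 pluripotency markers were bright in both groups: their mean log2 level ran from 11.67 to 11.73 in adult 129SV and from 11.68 to 11.71 in adult Stra8, against 10.04 to 10.18 in the differentiated adult 129SV cells. The 6 markers of spermatogonial stem cells had a mean level of 7.85 to 7.87 and 7.80 to 7.84. Markers of primitive endoderm were higher in adult Stra8 for 6 of 6 genes (mean level 7.88 to 8.04 against 8.76 to 8.91), and those of fibroblasts, the usual feeder cells, for 7 of 10 with 1 lower (9.57 to 9.63 against 10.28 to 10.32). Sertoli and Leydig cell markers were lower for 3 of 7 and higher for 0 (5.95 to 6.12 against 5.75 to 5.88), and trophoblast markers lower for 3 of 5 and higher for 0 (6.61 to 6.67 against 6.11 to 6.29). In RNA from whole cultures, fewer cells of a type and less RNA per cell cannot be told apart. No detection call was available, so no marker can be called absent.

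**Figure D1:**
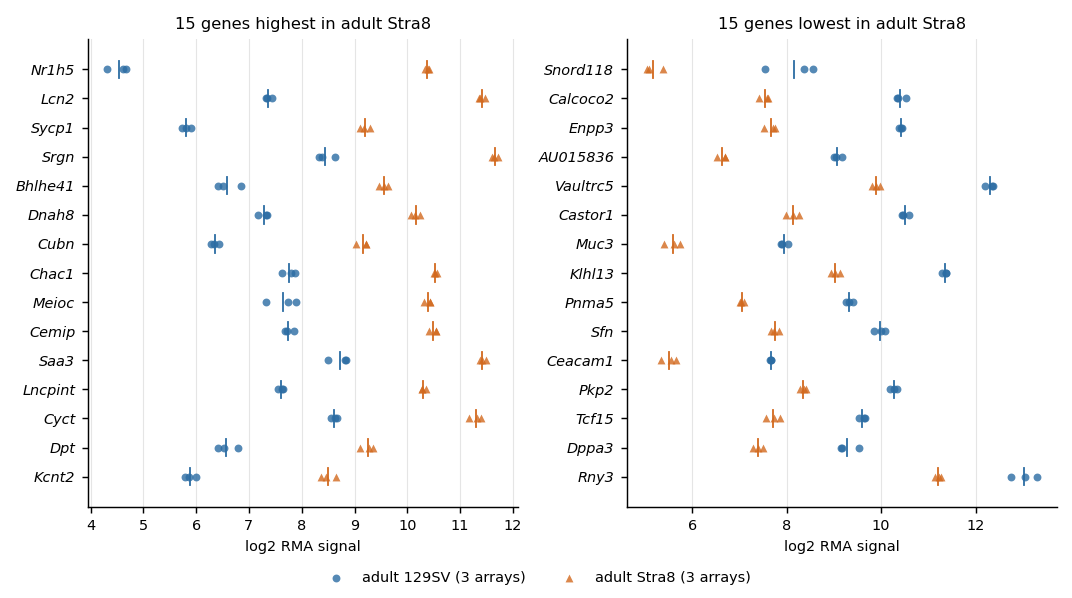
Log2 RMA signal (x axis) of the 15 genes with the largest positive difference (left) and the 15 with the largest negative one (right). Circles are the 3 adult 129SV arrays, triangles the 3 adult Stra8 arrays and short vertical lines the group means. The groups do not overlap for any of the 30 genes, which was a condition of their choice. None of the 974 called genes with a difference of at least 2-fold failed that condition.

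The largest difference belonged to Nr1h5, a nuclear receptor related to the bile acid receptor. Nr1h5 read 4.66, 4.62 and 4.32 in adult 129SV and 10.41, 10.39 and 10.33 in adult Stra8, a difference of 5.84 ± 0.10 (limma adjusted p = 1.22e-15). In adult 129SV it stood near the low end of the scale on every array and in adult Stra8 far above. Its neighbour on chromosome 3 is Sycp1, the central filament protein of the synaptonemal complex that pairs chromosomes in meiosis. Sycp1 read 5.90, 5.81 and 5.72 in adult 129SV and 9.11, 9.29 and 9.18 in adult Stra8 (3.38 ± 0.06, adjusted p = 1.22e-15). Both genes were also higher in ES Stra8 than in ES 129SV cells, by 4.61 and 2.17, yet the difference was larger in the adult cells for each (limma test of adult minus ES difference, adjusted p = 2.81e-06 for Nr1h5 and 7.35e-09 for Sycp1).

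Lcn2, a secreted protein that binds bacterial iron carriers and rises in the acute phase response, came next. Lcn2 read 7.44, 7.34 and 7.32 in adult 129SV and 11.47, 11.36 and 11.38 in adult Stra8 (4.04 ± 0.08, limma adjusted p = 5.72e-15). Srgn, the core protein of the proteoglycan serglycin, read 8.63, 8.38 and 8.33 against 11.64, 11.72 and 11.61 (3.21 ± 0.08). Cubn, an endocytic receptor of yolk sac endoderm, read 6.34, 6.29 and 6.44 against 9.22, 9.21 and 9.03 (2.80 ± 0.07). In ES cells the background difference of all 3 genes had the opposite sign (-1.16, -2.86 and -2.69).

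Among the rest of the 15 highest were Dnah8, a dynein heavy chain of the sperm tail (2.88 ± 0.07), Meioc, which sustains meiotic prophase (2.75 ± 0.17), Cyct, the testis form of cytochrome c (2.68 ± 0.14), and Chac1, which degrades glutathione under amino acid stress (2.77 ± 0.09). The others were the transcriptional repressor Bhlhe41 (2.97 ± 0.12), Cemip, which takes part in hyaluronan breakdown (2.75 ± 0.07), the acute phase gene Saa3 (2.70 ± 0.09), the long noncoding RNA Lncpint (2.69 ± 0.05), the matrix protein Dpt (2.68 ± 0.11) and the potassium channel Kcnt2 (2.60 ± 0.09). Of these 10 genes Bhlhe41 read 6.84, 6.42 and 6.51 in adult 129SV and 9.64, 9.46 and 9.56 in adult Stra8, and Lncpint 7.55, 7.65 and 7.62 against 10.35, 10.28 and 10.28. Dpt, Cemip and Saa3 were lower in ES Stra8 than in ES 129SV cells, and the other 7 were higher there.

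On the low side, Snord118, a small nucleolar RNA needed to process ribosomal RNA, read 7.54, 8.37 and 8.56 in adult 129SV and 5.39, 5.08 and 5.04 in adult Stra8 (-2.99 ± 0.19, limma adjusted p = 1.54e-09). Replicate 1 of adult 129SV was the lowest of its group but still above all 3 adult Stra8 arrays. Calcoco2, an autophagy receptor, read 10.33, 10.53 and 10.37 against 7.58, 7.62 and 7.42 (-2.87 ± 0.13, adjusted p = 2.95e-11). Enpp3, an ectonucleotidase, read 10.44, 10.42 and 10.38 against 7.74, 7.71 and 7.53 (-2.75 ± 0.08). Calcoco2 had the opposite sign in ES cells (0.85), and Enpp3 was not called there (-0.07, adjusted p = 0.5404).

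Castor1, which senses arginine for the mTORC1 pathway, was lower by 2.37 on the log2 scale, with 10.45, 10.60 and 10.46 in adult 129SV and 8.27, 8.14 and 7.98 in adult Stra8. Dppa3 (Stella), an oocyte and germ cell factor that protects DNA methylation, read 9.17, 9.15 and 9.53 against 7.30, 7.51 and 7.39 (-1.89 ± 0.11). Also among the 15 were the X-linked genes Klhl13 (-2.31), an adaptor of a ubiquitin ligase, Pnma5 (-2.28) and AU015836 (-2.43), the mucin Muc3 (-2.35), the 14-3-3 protein Sfn (-2.23), the adhesion molecule Ceacam1 (-2.14), the desmosome protein Pkp2 (-1.92), the bHLH factor Tcf15 (-1.89), and the small RNAs Vaultrc5 (-2.41) and Rny3 (-1.82).

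**Figure D2:**
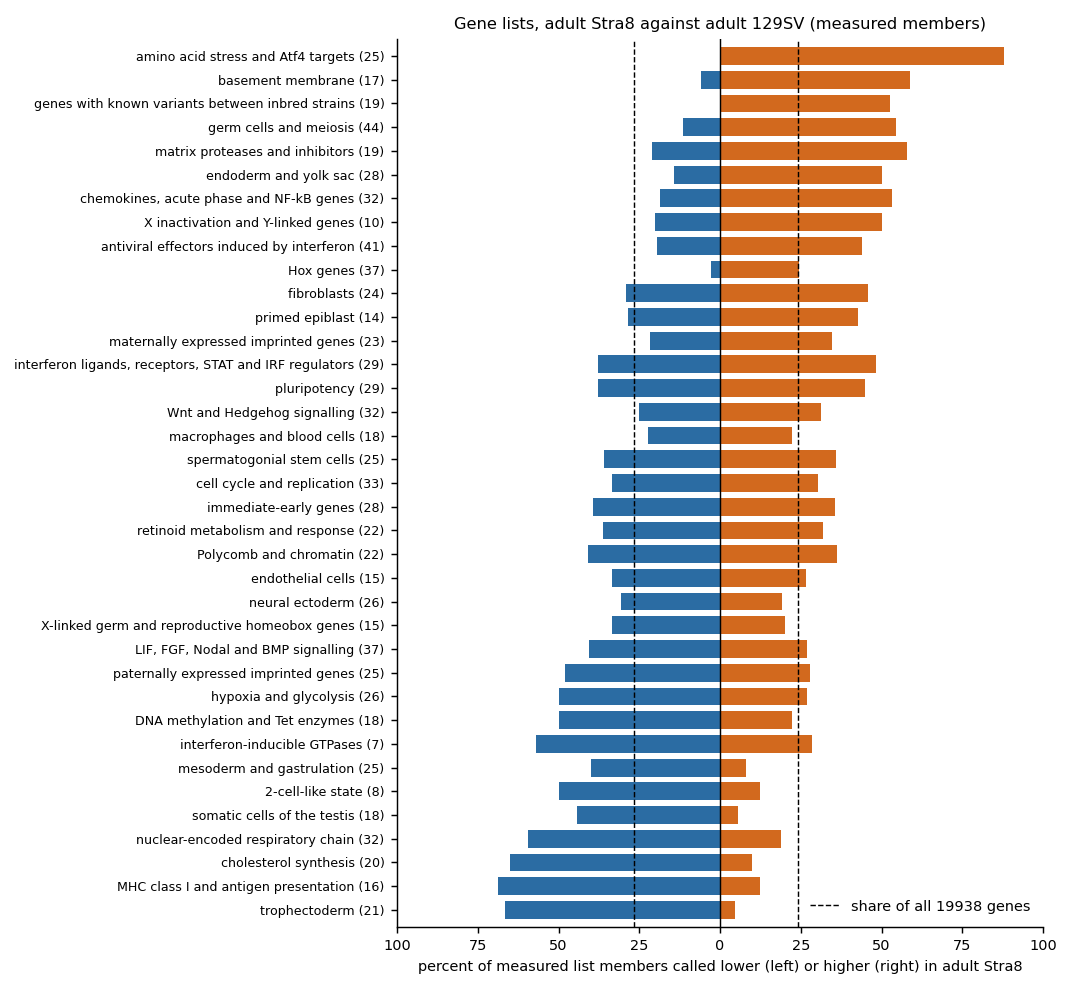
Percent of the measured members of each of 37 gene lists called lower (bars to the left) or higher (bars to the right) in adult Stra8 than in adult 129SV, with the number of measured members in parentheses. Dashed lines mark the shares over all 19938 genes (26.8% lower, 24.2% higher). Amino acid stress genes lead on the higher side, and trophectoderm genes and the list of MHC class I and antigen presentation on the lower.

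Genes of germ cells and meiosis were mostly higher in adult Stra8: of 44 measured 24 were higher, 5 lower and 15 not called, with a median difference of 0.32 against -0.08 over all genes. Sycp1 and Cyct had the largest differences of the list. Among its proteins of the synaptonemal complex, of chromosome axes and of cohesin, read here as a group chosen after the values were seen, were Smc1b, a meiotic cohesin (2.36 ± 0.10), Sycp3 (2.00 ± 0.18) and Sycp2 (1.87 ± 0.09), the axis proteins, Hormad1, their partner in the axis (1.70 ± 0.14), and Stag3, another meiotic cohesin (1.28 ± 0.05). Sycp2 read 5.57, 5.64 and 5.70 in adult 129SV and 7.30, 7.71 and 7.50 in adult Stra8, and Sycp3 read 6.38, 5.73 and 6.00 against 7.87, 8.16 and 8.07. Neither gene's groups overlapped. Syce1 and Tex12 of the synaptonemal complex were higher by 0.60 and 0.34, Syce2 was not called (0.00) and the cohesin Rec8 was lower by 0.51. The recombinase Dmc1 was higher by 0.81, and Spo11, which cuts DNA to start recombination, was not called (-0.14 ± 0.13, adjusted p = 0.3755). A separate list of X-linked germ and reproductive homeobox genes did not share the direction: of 15 measured 3 were higher, 5 lower and 7 not called (median -0.06). Its differences ran from -1.07 for Tex13b to 2.15 for Taf7l.

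Germline genes that act against transposons were higher in part. Mael, of the piRNA pathway, read 6.61, 6.55 and 6.92 in adult 129SV and 8.66, 8.76 and 8.77 in adult Stra8 (2.04 ± 0.10, limma adjusted p = 1.50e-10). Tdrd1 (1.01), Asz1 (0.48), Gtsf1 (0.50), Piwil2 (0.49), Tdrd9 (0.30) and Mov10l1 (0.28) were higher as well, while Piwil1 (0.03) and Piwil4 (-0.22) were not called. The exception was Tex19.1, a placental and germline gene that guards against retrotransposons, which was lower by 1.43, with 9.53, 9.82 and 9.93 in adult 129SV and 8.46, 8.33 and 8.20 in adult Stra8. Of the germ cell RNA regulators, the helicase Ddx4 was higher by 1.00 ± 0.08 (7.57, 7.39 and 7.46 against 8.45, 8.54 and 8.42) and Dazl by 0.56 ± 0.10 (6.69, 6.89 and 6.86 against 7.35, 7.45 and 7.33). Prdm1, which specifies primordial germ cells, was higher by 1.35, and the germline Polycomb protein Scml2 by 1.15. Genes of late spermatids did not move that way: Tnp1 (0.12), Tnp2 (0.00) and Prm2 (-0.25) were not called, and Prm1 was lower by 0.33. In ES cells 15 of the 44 genes were higher in the Stra8 background and 7 lower. The test of adult minus ES difference was positive for 18 and negative for 3, against 4243 and 4345 of all 19938 genes.

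Stra8, the retinoic acid induced gene after which the background is named, was lower in adult Stra8 (-0.70 ± 0.12, limma adjusted p = 1.37e-04). Stra8 read 6.54, 6.60 and 6.58 in adult 129SV and 5.83, 5.89 and 5.89 in adult Stra8, so the groups did not overlap, and the difference in ES cells was nearly the same (-0.69; test of the difference, adjusted p = 0.978). The name Stra8-EGFP was read here as a reporter on the Stra8 promoter, and the labels do not say whether the gene itself was changed. Whether the Stra8 probes overlap sequence of the transgene was not tested. Among other retinoid genes 7 of 22 were higher and 8 lower including Stra8 (median -0.05). The retinaldehyde reductase Dhrs3 was higher by 0.83 and the receptors Rarg and Rxrg were lower by 0.74 and 0.65.

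**Figure D3:**
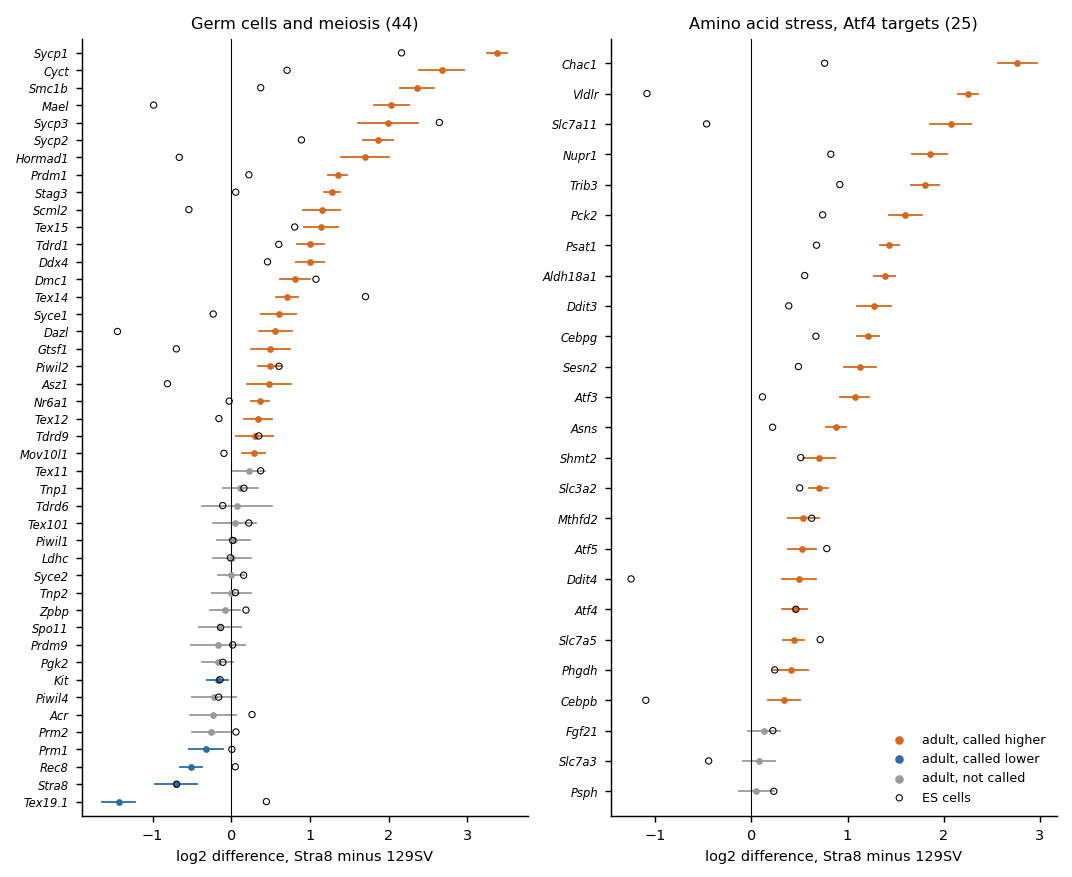
Log2 difference of Stra8 minus 129SV (x axis) for every measured member of the germ cell and meiosis list (left, 44 genes) and of the amino acid stress list (right, 25 genes). Filled points with lines are adult cells with the 95% confidence interval of the limma fit, coloured by call, and open circles are the difference in ES cells. Mael and Hormad1, far to the right in adult cells, have an open circle below 0.

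The promoters of 5 of the higher meiotic genes are shown because each holds CACGTG, the palindromic E-box that Myc, Max and Usf proteins bind. Sequences are from RefSeq on GRCm38.p6, from 250 bases before to 50 after the start of the gene, 5′ to 3′ on its strand, with each CACGTG in capitals. The windows are chr3:102936051-102936350 (minus strand) for Sycp1, chr10:88459337-88459636 (plus) for Sycp3, chr3:95559427-95559726 (plus) for Hormad1, chr1:166238695-166238994 (minus) for Mael and chr5:138280259-138280558 (plus) for Stag3. Sycp3 and Hormad1 hold 2 copies each.
Sycp1: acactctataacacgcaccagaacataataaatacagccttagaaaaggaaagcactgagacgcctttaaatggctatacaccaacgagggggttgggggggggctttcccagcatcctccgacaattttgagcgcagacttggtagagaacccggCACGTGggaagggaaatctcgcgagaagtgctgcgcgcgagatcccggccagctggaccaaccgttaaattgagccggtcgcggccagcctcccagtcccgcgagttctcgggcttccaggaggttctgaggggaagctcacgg
Sycp3: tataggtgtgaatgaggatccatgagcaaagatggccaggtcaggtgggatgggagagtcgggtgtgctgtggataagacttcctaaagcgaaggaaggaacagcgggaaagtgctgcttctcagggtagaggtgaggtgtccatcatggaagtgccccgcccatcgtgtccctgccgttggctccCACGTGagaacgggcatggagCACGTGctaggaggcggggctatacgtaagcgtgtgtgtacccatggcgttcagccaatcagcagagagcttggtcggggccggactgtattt
Hormad1: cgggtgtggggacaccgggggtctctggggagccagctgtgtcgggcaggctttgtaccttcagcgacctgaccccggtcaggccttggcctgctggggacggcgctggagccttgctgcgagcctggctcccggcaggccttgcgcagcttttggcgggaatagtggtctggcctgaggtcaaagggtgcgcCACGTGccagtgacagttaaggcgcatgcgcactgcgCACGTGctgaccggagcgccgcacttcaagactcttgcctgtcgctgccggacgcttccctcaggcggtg
Mael: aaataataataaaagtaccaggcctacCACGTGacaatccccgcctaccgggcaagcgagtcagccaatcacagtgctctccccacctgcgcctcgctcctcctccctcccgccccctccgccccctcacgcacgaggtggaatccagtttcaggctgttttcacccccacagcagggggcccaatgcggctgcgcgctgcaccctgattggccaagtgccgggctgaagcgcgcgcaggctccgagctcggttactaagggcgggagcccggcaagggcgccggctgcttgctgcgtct
Stag3: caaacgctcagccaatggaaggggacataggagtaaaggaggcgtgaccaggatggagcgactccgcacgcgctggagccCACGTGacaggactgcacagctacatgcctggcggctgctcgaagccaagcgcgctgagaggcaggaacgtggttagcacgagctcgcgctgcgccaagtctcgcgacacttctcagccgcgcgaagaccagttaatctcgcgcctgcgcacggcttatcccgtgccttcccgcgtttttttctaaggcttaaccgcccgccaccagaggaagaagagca

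Over the genes with a promoter in the table, CACGTG lay in 11 of 38 of the germ cell list and in 10 of the 22 among them that were higher. It lay in 16.1% of the 547 promoters of genes at least 2-fold higher, in 7.04% of the 199 of genes at least 2-fold lower, and in 8.40% of all 15563. The other 4 motifs, read on both strands, showed smaller contrasts. CCAAT lay in 37.5%, 37.7% and 38.3% of these same sets, GAAANNGAA, a core shared by interferon response elements, in 8.78%, 5.53% and 7.93%, TGANTCA, the AP-1 site, in 7.86%, 4.52% and 6.97%, and TGATGNAAT, the Atf4 composite site, in 1.28%, 0% and 0.713%. A match only describes the letters of the window and shows no binding.

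Of the 37 lists, the largest median difference was that of amino acid stress and Atf4 targets, where 22 of 25 were higher, 0 were lower and the median was 0.88. Atf4, the transcription factor that translation control raises when amino acids run short, was itself higher by 0.45 ± 0.06. Chac1 read 7.63, 7.87 and 7.79 in adult 129SV and 10.52, 10.51 and 10.56 in adult Stra8. The pseudokinase Trib3 read 8.98, 8.84 and 9.06 against 10.81, 10.76 and 10.73 (1.81 ± 0.07, limma adjusted p = 5.59e-12). In both genes the groups lay far apart.

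Transporters, synthesis enzymes and regulators of this response shared the direction. The cystine transporter Slc7a11 was higher by 2.07 (6.54, 6.61 and 6.30 against 8.59, 8.53 and 8.54), the lipoprotein receptor Vldlr by 2.26 (7.38, 7.38 and 7.33 against 9.62, 9.61 and 9.64) and the chromatin protein Nupr1 by 1.86. Of the enzymes, Pck2 was higher by 1.60, Psat1 and Phgdh of serine synthesis by 1.44 and 0.41, Aldh18a1 of proline synthesis by 1.39 and asparagine synthetase Asns by 0.88. Ddit3 (1.27), Cebpg (1.21), Sesn2 (1.13) and Atf3 (1.07) were higher too, and Psph (0.05), Slc7a3 (0.08) and Fgf21 (0.13) were not called. In ES cells 19 of the 25 were also higher in the Stra8 background, with a median of 0.49, but Vldlr (-1.09), Slc7a11 (-0.47), Ddit4 (-1.25) and Cebpb (-1.10) were lower there. Over all genes 21.3% were called higher and 20.0% lower in the ES comparison.

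The promoter of Nupr1 is shown as that of the only higher member of the list with a TGATGNAAT match in its window, here on the other strand as ATTGCATCA in capitals (RefSeq, GRCm38.p6, chr7:126625421-126625720, minus strand). It also holds a CACGTG, left in lower case.
Nupr1: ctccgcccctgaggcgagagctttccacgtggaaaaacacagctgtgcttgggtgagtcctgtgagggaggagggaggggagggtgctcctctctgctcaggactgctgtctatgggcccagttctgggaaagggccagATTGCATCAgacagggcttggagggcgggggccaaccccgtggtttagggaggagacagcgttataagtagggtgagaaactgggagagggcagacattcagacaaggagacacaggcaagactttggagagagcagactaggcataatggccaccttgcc

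Inflammatory genes were higher in adult Stra8 for 17 of 32 measured, lower for 6 (median 0.23). In ES cells 31 of the 32 were lower in the Stra8 background and 0 higher (median -1.16). Cxcl10, a chemokine induced by interferon, read 7.17, 7.45 and 7.27 in adult 129SV and 9.35, 9.26 and 9.11 in adult Stra8 (1.94 ± 0.08, limma adjusted p = 2.17e-11). The cytokine Il6 read 7.75, 7.53 and 7.70 against 9.27, 9.28 and 9.14 (1.57 ± 0.13). Cxcl5 (1.56), Cxcl16 (1.52), Vcam1, an adhesion molecule (1.42), and Ccl20 (1.30) were higher, and Il1b and Ccl3, typical of macrophages, were lower by 0.97 each. Chromosomes 8 and 11, which are described further on, hold 9 of the 32, and without these chromosomes 3 of the list remained lower.

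Antiviral effectors induced by interferon went the same way with smaller differences: 18 of 41 were higher, 8 lower and 15 not called (median 0.10). Without chromosomes 8 and 11, which hold 9 of the 41, 4 were lower. Ifit1 read 5.92, 6.03 and 6.45 in adult 129SV and 7.92, 7.82 and 7.61 in adult Stra8 (1.65 ± 0.12), and Ifit3 read 5.45, 5.04 and 5.34 against 6.57, 6.66 and 6.64 (1.35 ± 0.09). Rtp4 (1.30), Usp18 (1.16), Trim30a (1.13) and the RNA sensor Ifih1 (1.04) were higher, while Bst2 (-0.65), Ifi35 (-0.83) and Ifitm1 (-1.01) were lower. In ES cells the same list had 39 of 41 lower and 1 higher in the Stra8 background, with a median of -2.19. The ES 129SV mean of Ifit3 was 10.89, above the means of ES Stra8 (6.23), adult Stra8 (6.62) and adult 129SV (5.28).

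Regulators of the interferon response were divided, with 14 of 29 higher and 11 lower (median 0.14). Without chromosomes 8 and 11, which hold 7 of the 29, 7 were lower. Irf7, which amplifies interferon production, was higher by 1.49 ± 0.09 (7.42, 7.13 and 7.36 against 8.88, 8.77 and 8.74), with Tlr4 (1.29) and Jak2 (1.13). Irf1, the factor downstream of interferon gamma, was lower by 1.63 ± 0.07 (9.67, 9.51 and 9.75 against 8.15, 7.97 and 7.94). Antigen presentation was mostly on the lower side: 11 of 16 genes were lower and 2 higher (median -0.35). The lower genes included the immunoproteasome subunits Psmb10 (-1.55, with 9.46, 9.40 and 9.54 against 7.96, 7.83 and 7.97) and Psmb9 (-0.54), the activator Psme2 (-0.83) and the peptide loading factor Tapbp (-0.75). The 2 higher ones were B2m, the light chain of MHC class I (1.68 ± 0.09, 10.22, 10.10 and 10.28 against 11.84, 11.90 and 11.91), and the class I gene H2-Q4 (2.41 ± 0.09), whose probes may share sequence with related H2 genes. Of 7 interferon-inducible GTPases 4 were lower, led by Gbp4 (-0.99), and 2 were higher (1 without adult Stra8 replicate 1, adult Stra8 replicate 3 or adult 129SV replicate 1).

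Endoderm and yolk sac genes were higher for 14 of 28 and lower for 4 (median 0.19; 2 lower without replicate 1 of either group or adult 129SV replicate 2). After Srgn and Cubn, the endocytic receptor Lrp2, the partner of Cubn, was higher by 1.64 ± 0.06 (8.66, 8.82 and 8.70 against 10.44, 10.35 and 10.32), with the adaptor Dab2 (1.34). The transcription factors of primitive endoderm were higher as well: Gata4 by 1.02 ± 0.10 (7.89, 8.41 and 8.09 against 9.10, 9.20 and 9.14), Sox7 by 0.78, Gata6 by 0.63 and Sox17 by 0.45. Secreted proteins of later visceral endoderm were not called, among them Afp (-0.07) and Ttr (-0.08). In ES cells 16 of the 28 genes were lower in the Stra8 background and 2 higher (median -0.29). Basement membrane genes, which primitive endoderm secretes in bulk, were higher for 10 of 17 and lower for 1 (median 0.22), led by the laminin chains Lama1 (1.32), Lama4 (0.84) and Lamc1 (0.74). These are long genes, with a median genomic length of 114 kb, and the brighter genes of the longest of 4 length classes had a median difference of 0.23. The part of length in the count was not tested. In ES cells 10 of the 17 were lower in the Stra8 background and 0 higher. Differentiated adult 129SV cells read 13.40 for Lama1, where adult Stra8 cells averaged 10.18 and adult 129SV cells 8.86.

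Fibroblast genes were higher for 11 of 24 and lower for 7 (median 0.15). The largest differences were those of the small proteoglycans Dcn and Lum: Dcn was higher by 2.34 ± 0.05 (10.15, 10.12 and 10.18 against 12.52, 12.50 and 12.46), Lum by 2.11 ± 0.12, and the mesenchymal transcription factors Twist2 by 1.18 and Prrx1 by 0.81, while Twist1 was not called (0.17). Of the collagen genes Col5a2 was higher by 0.80, Col1a2 (-0.05) and Col3a1 (-0.09) were not called, and Col1a1 (-0.30) and Col6a3 (-0.66) were lower. Matrix proteases and their inhibitors had 11 of 19 higher and 4 lower (median 0.28). Mmp13 read 10.66, 10.38 and 10.61 in adult 129SV and 12.83, 12.88 and 12.79 in adult Stra8 (2.29 ± 0.08, limma adjusted p = 3.41e-12), and Mmp3 was higher by 1.98, Mmp10 by 1.14, Mmp9 by 0.90 and Mmp2 by 0.89. The plasminogen activator Plau (-0.54) and the inhibitor Timp1 (-0.40) were lower.

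The fibroblast and endoderm marker levels given above are no separate reading. All of those markers are also members of the fibroblast list or of the endoderm and yolk sac list. The part of other cell types in these changes was not tested. In ES cells the fibroblast list was lower in the Stra8 background for 22 of 24 and higher for 0 (median -0.99). The list of matrix proteases and inhibitors was lower there for 16 of 19 and higher for 1 (median -1.20). The fibroblast markers had a mean level of 10.82 to 10.87 in ES 129SV and 9.44 to 9.54 in ES Stra8, so their order between backgrounds was the reverse of that in adult cells. Among blood cell genes 4 of 18 were higher, led by Laptm5 (0.82), and 4 lower. Those 2 counts were 2 and 2 without replicate 1 of either group, and 1 was lower without adult Stra8 replicate 2 or 3.

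Genes of pluripotency were divided: of 29 measured 13 were higher and 11 lower, and the median was -0.01. Pou5f1, the central factor, read 12.52, 12.54 and 12.63 in adult 129SV and 12.29, 12.27 and 12.23 in adult Stra8 (-0.30 ± 0.10, limma adjusted p = 0.0147). The groups did not overlap, though without adult 129SV replicate 3 the difference of -0.27 was no longer called (adjusted p = 0.0548). Nanog was lower by 0.35 (11.82, 11.89 and 11.96 against 11.57, 11.53 and 11.51), and neither Sox2 (0.13 ± 0.11, adjusted p = 0.3382) nor Klf4 (-0.07 ± 0.06, 0.3483) was called. Zfp42 (Rex1) was lower by 0.43 (adjusted p = 0.02486), a call lost without adult Stra8 replicate 1 (0.0699) or adult 129SV replicate 1 (0.0679) or 3 (0.0510).

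Differences of over 0.5 were found on both sides of this list. Klf5 (0.93), Tfcp2l1 (0.92), Esrrb (0.69), Nr0b1 (0.68) and Tbx3 (0.60) were higher, as was Rif1 (1.00), a telomere and replication timing protein. Below stood Dppa4 (-1.20, with 10.32, 10.52 and 10.44 against 9.29, 9.24 and 9.17), its partner Dppa2 (-0.68), the chromatin factor Utf1 (-0.98) and Fgf4 (-0.50), besides Dppa3. Dppa5a (-0.01) and the receptor Nr5a2 (-0.03) were not called, and Prdm14 was lower by 0.27. Among genes of the primed epiblast 6 of 14 were higher and 4 lower. Lefty2, an inhibitor of Nodal, was highest by 1.74 ± 0.07 (9.15, 9.31 and 9.34 against 11.05, 11.02 and 10.94), with Otx2 (0.73) and Lefty1 (0.66), and Foxd3 (-0.85), Lef1 (-0.80) and Eomes (-0.77) were lower. The epiblast marker Fgf5 was not called (0.00).

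Spermatogonial stem cell genes were split evenly, 9 of 25 higher and 9 lower (median -0.10). Sohlh2, a bHLH factor of spermatogonia, was higher by 1.58 ± 0.06 (8.03, 7.95 and 8.07 against 9.63, 9.61 and 9.57). Id4 (0.50), Uchl1 (0.57) and Thy1 (0.32), genes often used to sort these cells or mark them, were higher, while the surface integrin Itga6 (-0.70), Bcl6b (-0.65), Nanos3 (-0.66) and Zbtb16, or Plzf (-0.32), were lower. Gfra1, the receptor for the niche factor GDNF, was not called (0.07 ± 0.09, limma adjusted p = 0.5382). Somatic genes of the testis were lower for 8 of 18 and higher for 1, which was Gata4, shared with primitive endoderm (median -0.24; 5 lower without adult 129SV replicate 2 and 4 with dim genes left out). Wt1, a factor of Sertoli cells and of mesothelium, was lower by 1.43 ± 0.09 (8.62, 8.57 and 8.61 against 6.96, 7.31 and 7.23).

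Trophectoderm genes were lower in adult Stra8 for 14 of 21 and higher for 1 (median -0.35). Bmp4, a growth factor of trophoblast and early mesoderm, was lower by 1.42 ± 0.10 (9.46, 9.40 and 9.39 against 8.14, 7.96 and 7.89), Hand1 by 0.83, the keratins Krt19 and Krt8 by 0.75 and 0.55, Gata3 by 0.60 and Tfap2c by 0.53. Cdx2 was not called (-0.16). Mesoderm genes were lower for 10 of 25 and higher for 2, with the heart factor Tbx20 lower by 1.64 and Meox1 by 0.68. Without chromosomes 8 and 11, which hold 5 of the 25, 6 were lower and 1 higher. In the neural list 8 of 26 were lower and 5 higher. Tubb3, a neuronal tubulin, was lower by 1.46 ± 0.09 (9.74, 9.70 and 9.76 against 8.29, 8.30 and 8.22), Gbx2 by 1.11, En2 by 0.98 and the filament gene Nes by 0.86, and Sox11 (1.00) and Zic2 (0.86) were higher. Of 37 Hox genes 9 were higher, all by less than 2-fold and led by Hoxc13 (0.69; 5 higher with dim genes left out), and 27 were not called.

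Among LIF, FGF, Nodal and BMP genes 10 of 37 were higher, 15 lower and 12 not called (median -0.09). The FGF target Etv4 was lower by 1.61 ± 0.10 (10.26, 10.37 and 10.55 against 8.80, 8.79 and 8.75), as were Fgf15 (-0.76), Spry4 (-0.44) and Spry2 (-0.23), feedback genes of FGF signalling, and Dusp6 was not called (0.03). The BMP targets Id1 and Id3 were lower by 0.83 and 0.62, and the BMP antagonist Grem1 was higher by 1.53 ± 0.11 (10.43, 10.48 and 10.52 against 12.05, 12.01 and 11.97). The LIF receptor chains Lifr and Il6st were higher by 0.42 and 0.79, and Socs3, a feedback gene of LIF signalling, was lower by 0.62. Wnt and Hedgehog genes had 10 of 32 higher and 8 lower (median -0.01). Without chromosomes 8 and 11, which hold 7 of the 32, 5 were lower. The receptor Fzd7 was higher by 1.51, the ligand Wnt5a by 0.77 and the Hedgehog inhibitor Hhip by 0.66, and the feedback regulators Notum (-1.31) and Axin2 (-0.94), both on chromosome 11, and the factor Lef1 (-0.80) were lower. Immediate-early genes were divided, 10 of 28 higher and 11 lower, with Myc lower by 0.98 (10.65, 10.49 and 10.73 against 9.71, 9.63 and 9.61).

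Metabolic genes were lower more often than higher. Cholesterol synthesis was lower for 13 of 20 and higher for 2 (median -0.36), with 4 genes at least 2-fold lower: Mvd (-1.33 ± 0.08, 9.32, 9.36 and 9.49 against 8.17, 8.07 and 7.95), Pmvk (-1.21), Dhcr7 (-1.19) and Fdps (-1.10). Srebf2, which activates the pathway, was lower by 0.50, and Sc5d was higher by 0.86. Nuclear-encoded respiratory chain subunits were lower for 19 of 32 and higher for 6 (median -0.23). Their median genomic length was 9.83 kb, and the brighter genes of the 2 shortest of 4 length classes had medians of -0.23 and -0.14. Whether length had a part in that count was not tested. Cox4i1 and Cox5a of complex IV were lower by 0.88 and 0.87 and Sdhb of complex II by 0.82, while Ndufs1 and Ndufa10 of complex I were higher by 0.93 and 0.70. Hypoxia and glycolysis genes were lower for 13 of 26 and higher for 7 (median -0.18), with the glucose transporter Slc2a1 lower by 0.79, Hif1a higher by 0.96 and the peptide hormone gene Adm higher by 1.47. In ES cells the hypoxia list was lower in the Stra8 background for 23 and higher for 0 (median -1.09). The test of adult minus ES difference was positive for 22 of the 26 and negative for 0, against 4243 and 4345 of all 19938 genes.

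Cell cycle genes held 10 of 33 higher and 11 lower (median 0.01), so the list as a whole did not shift. Aurkb, the mitotic kinase, was lower by 1.32 ± 0.05 (11.45, 11.51 and 11.48 against 10.16, 10.14 and 10.19), cyclin E1 (Ccne1) by 0.99 and Ccnd3 by 0.82, and Cdk6 (0.81) and the inhibitor Cdkn1b (0.76) were higher. Aurkb lies on chromosome 11.

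Imprinted genes, which are read from 1 parental copy, were counted by the parental copy in use. Of the 25 paternally expressed genes 7 were higher and 12 lower, and of the 23 maternally expressed ones 8 were higher and 5 lower (3 lower without adult Stra8 replicate 1 or 2 or adult 129SV replicate 2). Mest, paternally expressed, was lower by 1.23 ± 0.06 (11.18, 11.23 and 11.21 against 9.98, 9.98 and 9.95), as were Nnat (-1.24), Sfmbt2 (-1.15) and Peg10 (-0.92), while Peg3 was higher (0.82). Of the maternally expressed genes Grb10, an inhibitor of growth factor signalling, was higher by 2.33 ± 0.05 (9.18, 9.07 and 9.20 against 11.50, 11.48 and 11.45), the cell cycle inhibitor Cdkn1c by 1.44, the noncoding RNA Rian by 1.40 and Igf2r by 1.15. Neither Igf2 (-0.07 ± 0.05, limma adjusted p = 0.2631) nor Meg3 (0.03) was called, though Igf2 was without adult Stra8 replicate 1 (-0.13, adjusted p = 0.0400). The array does not tell the parental copies apart.

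The list of DNA methylation genes, which holds the enzymes that write and remove the mark and proteins that bind or protect it, had 9 of 18 lower and 4 higher (median -0.17). Dnmt3a, which sets new methylation, was lower by 1.19 ± 0.06 (10.64, 10.55 and 10.57 against 9.43, 9.42 and 9.34), Zfp57, which protects imprints, by 0.82 and Setdb1, its partner histone methyltransferase, by 0.65. The cytidine deaminase Apobec3 was lower by 1.19, and Tet1 and Tet2, which oxidise the mark, by 0.25 and 0.26. The maintenance enzyme Dnmt1 (0.02) and Dnmt3b (0.13) were not called. Polycomb and chromatin genes were divided (8 of 22 higher, 9 lower), with Bmi1 higher by 1.12, Ezh2 by 0.53 and Eed by 0.57, and Ehmt2 lower by 0.75. Of 10 genes of X inactivation or the Y chromosome 5 were higher, 2 lower and 3 not called. The lower count was 0 without adult 129SV replicate 2 and 4 with fitted array weights. Xist, the RNA of X inactivation, was higher by 0.59 ± 0.13 (7.48, 7.44 and 7.61 against 8.20, 8.12 and 7.97). The Y-linked genes Uty, Eif2s3y and Kdm5d were higher by 1.33, 0.68 and 0.30.

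Among 19 genes with well-known sequence or copy number variants between inbred strains, 10 were higher and 0 lower (median 0.17). Nnt, a mitochondrial transhydrogenase that is partly deleted in some C57BL/6 substrains, read 8.93, 8.83 and 8.73 in adult 129SV and 9.62, 9.63 and 9.57 in adult Stra8 (0.77 ± 0.06), with a like difference in ES cells (0.66; test of the difference, limma adjusted p = 0.2869). Cd59a was higher by 1.06 in adult and 0.98 in ES cells. Gpnmb was higher by 1.18 in adult cells and was not called in ES cells (-0.19, adjusted p = 0.1035). Ifi202b, whose level differs widely between strains, was higher by 1.36 in adult cells and lower by 3.41 in ES cells. It lay in a run of 3 neighbours on chromosome 1 that were all at least 2-fold higher in adult Stra8, with Ifi207 (1.66) and Ifi203 (1.97), and a like run on that chromosome was Rpe (1.82), Kansl1l (1.46) and Acadl (1.07). Probes that lie over a strain variant can change signal with no change of RNA, and that was not tested.

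The other runs of at least 3 neighbours were the zinc finger genes Zfp729b (1.10), Zfp729a (1.21) and Zfp738 (1.52), whose similar sequences may share probes, the chromosome 3 genes Extl2 (1.01), Vcam1 (1.42) and Cdc14a (2.43), and 2 microRNA clusters. Cdc14a, a mitotic phosphatase, read 7.07, 7.03 and 7.09 in adult 129SV and 9.51, 9.53 and 9.44 in adult Stra8. No run of 3 neighbours was at least 2-fold lower. In ES cells Cdc14a (1.14) and the zinc finger genes (0.74, 0.53 and 0.84) were also higher in the Stra8 background.

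Of 297 microRNA loci 65 were called higher and 42 lower, and 18 were at least 2-fold higher with 0 at least 2-fold lower. MicroRNAs silence messages that pair with their seed, bases 2 to 8 of the mature strand. Members of the miR-17 cluster on chromosome 14 and the related miR-106a cluster on the X chromosome, both active in ES cells, gave 8 of the 18. Their mature sequences (RefSeq, GRCm38.p6, 5′ to 3′, seed in capitals) are shown because they fall into few seed groups, together with miR-302b-3p of an ES cell cluster. The first 4 share the seed AAAGUGC, the next 2 share GUGCAAA, and miR-302b has AAGUGCU, which is AAAGUGC shifted by 1 base.
miR-17-5p: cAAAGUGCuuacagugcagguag
miR-20a-5p: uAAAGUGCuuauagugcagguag
miR-20b-5p: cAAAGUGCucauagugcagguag
miR-106a-5p: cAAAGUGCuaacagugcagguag
miR-19a-3p: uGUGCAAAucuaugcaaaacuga
miR-19b-3p: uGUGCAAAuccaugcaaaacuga
miR-363-3p: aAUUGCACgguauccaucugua
miR-302b-3p: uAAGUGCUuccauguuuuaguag

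Mir106a read 5.61, 5.26 and 5.12 in adult 129SV and 7.31, 7.12 and 7.29 in adult Stra8 (1.91 ± 0.16, limma adjusted p = 2.86e-08). Mir20a read 6.79, 6.56 and 6.67 against 7.86, 7.95 and 7.80 (1.20 ± 0.10), and Mir19b-1 read 6.00, 6.52 and 6.50 against 8.24, 7.90 and 7.97 (1.70 ± 0.12). Groups overlapped for none of these. Mir19b-2 (1.52), Mir363 (1.40), Mir302b (1.37), Mir19a (1.28), Mir20b (1.16) and Mir17 (1.15) were higher too. The loci Mir19b-1 and Mir19b-2 give the same mature sequence, so their probe sets may read the same RNA. For these 9 loci the difference in ES cells had the same sign, between 0.72 for Mir17 and 1.74 for Mir106a and Mir363, and the test of adult minus ES difference called none of them. All 9 were chosen for a difference of at least 2-fold, and other loci of their clusters differed less. Mir18 (0.29) and Mir92-2 (0.31) were higher, and that test called both (limma adjusted p = 0.0095 and 0.0059). Beside Mir302b, Mir302a (0.46) and Mir302d (0.50) were higher, and Mir302c (0.22) and Mir367 (0.07) were not called. In all, 8 of the 18 loci were also at least 2-fold higher in ES Stra8 cells. The array does not separate the mature strand from its precursor.

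Small structural RNAs went the other way in adult cells. Of 71 measured 45 were lower and 10 higher (median -0.61), among them 34 of 53 small nucleolar RNAs. Beside Snord118 and Rny3, the RNA of RNase P, Rpph1, was lower by 1.34 (13.72, 13.86 and 13.88 against 12.48, 12.50 and 12.47), the telomerase RNA Terc by 1.13 and the RNA of RNase MRP, Rmrp, by 0.74. In ES cells the median of the 71 had the opposite sign (0.47).

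Gene length varied with the difference as well. Protein-coding genes at least 2-fold higher in adult Stra8 had a median genomic length of 36.0 kb (674 genes), those at least 2-fold lower 10.2 kb (246 genes), and all others 18.8 kb. In 4 classes of equal size the median difference ran from -0.16 for the shortest genes (median 2.97 kb) through -0.14 and -0.03 to 0.11 for the longest (98.1 kb). Over the brighter genes alone the medians were -0.23, -0.14, 0.05 and 0.23. Across the 18556 protein-coding genes, which share the same 6 arrays, the log2 difference had r = 0.27 with log2 length, against 0.05 for the difference in ES cells. RNA integrity was not among the labels, and its part in this was not tested. Median lengths were 5.18 kb in the antigen presentation list and 11.1 kb in the trophectoderm list, both mostly lower. The inflammatory list, mostly higher, had 6.67 kb. The part of length in the list counts was not tested.

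**Figure D4:**
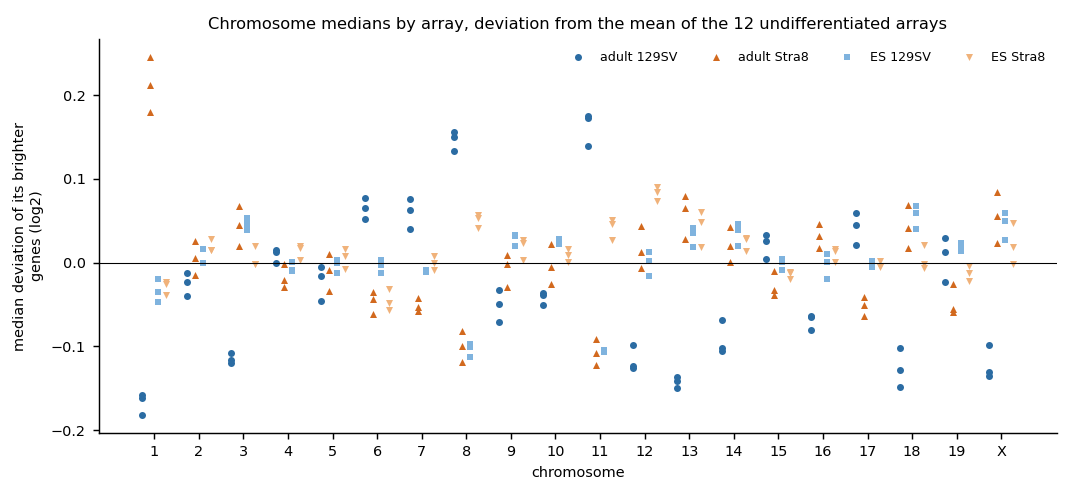
Median deviation (y axis, log2) of the brighter genes of each chromosome (x axis) on each undifferentiated array from the mean of the 4 undifferentiated groups. Each mark is 1 array: adult 129SV (dark circles), adult Stra8 (dark triangles), ES 129SV (pale squares) and ES Stra8 (pale inverted triangles). On chromosomes 1, 8 and 11 the adult groups lie furthest apart.

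A pattern by chromosome was noticed after the values were seen. Over genes brighter than the median signal (mean log2 level above 7.29, 12411 genes), the median difference was 0.38 on chromosome 1, -0.24 on chromosome 8 and -0.26 on chromosome 11. Over all genes tested, dim ones included, it was 0.09, -0.20 and -0.20. On the other chromosomes the median of the brighter genes lay between -0.12 (chromosome 7) and 0.19 (chromosome 13). Chromosome 1 held 109 genes at least 2-fold higher and 1 lower. Chromosomes 8 and 11 together held 108 of the 266 genes at least 2-fold lower, which is 40.6% of them, with 12.7% of the genes tested on numbered chromosomes and X. Calcoco2, Castor1, Snord118, Aurkb, Irf1, Etv4, Notum, Axin2, Tex19.1, Psmb10, Tubb3, Mvd and Cox4i1 all lie on 1 of these 2 chromosomes, whereas Grb10 and Meioc on chromosome 11 were higher.

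Array by array, the chromosome 8 genes deviated from the mean of the undifferentiated groups by 0.13, 0.16 and 0.15 in adult 129SV and by -0.08, -0.10 and -0.12 in adult Stra8. Chromosome 11 gave 0.14, 0.17 and 0.17 against -0.09, -0.11 and -0.12, and chromosome 1 gave -0.18, -0.16 and -0.16 against 0.25, 0.21 and 0.18. The groups did not overlap on any of the 3, nor on any other numbered chromosome or X except 2 and 5. Chromosome 13, for example, gave -0.14, -0.15 and -0.14 against 0.08, 0.07 and 0.03. In ES cells the order was reversed on chromosomes 8 and 11, with -0.10, -0.10 and -0.11 in ES 129SV and 0.05, 0.04 and 0.06 in ES Stra8 for chromosome 8, and the median background difference of the brighter genes was 0.15 and 0.13 on the 2 chromosomes (0.06 and 0.05 over all genes). On chromosome 1 the ES groups overlapped (-0.04, -0.02 and -0.05 in ES 129SV, -0.03, -0.04 and -0.02 in ES Stra8). The median ES difference of its brighter genes was 0.01. Within the 4 length classes the median of the brighter protein-coding genes stayed positive on chromosome 1 (0.06, 0.21, 0.48 and 0.59 from the shortest to the longest class) and negative on chromosome 8 (-0.39, -0.39, -0.16 and -0.01) and chromosome 11 (-0.37, -0.35, -0.24 and -0.03). DNA copy number was not measured, and its part was not tested.

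**Figure D5:**
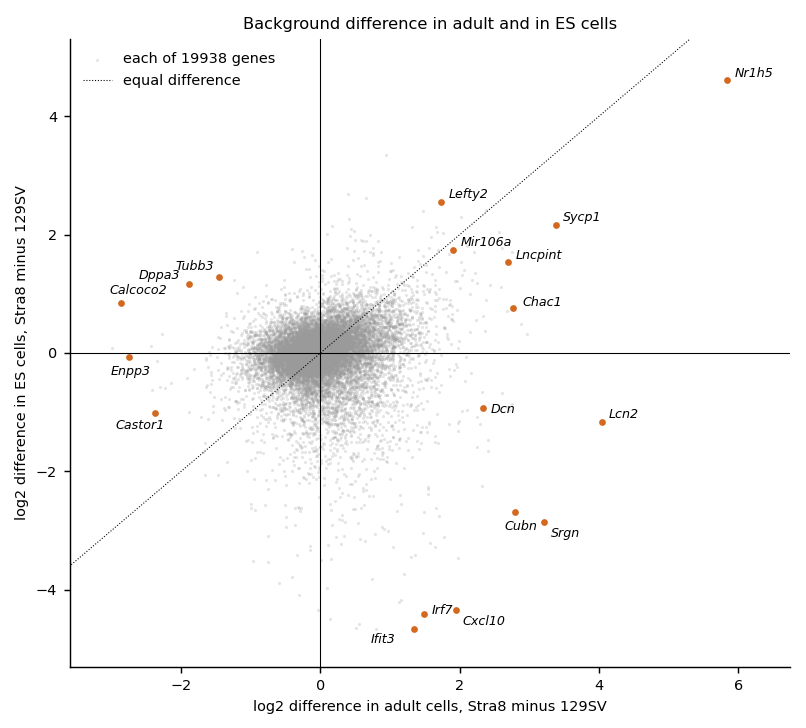
Log2 difference of Stra8 minus 129SV in adult cells (x axis) and in ES cells (y axis) for each of 19938 genes (grey), with 18 genes described in the text in colour. The dotted line marks equal differences. Nr1h5, Sycp1 and Mir106a lie where both are positive, and Lcn2, Srgn, Cubn and Cxcl10 where the adult difference is positive and the ES difference negative.

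Whether the background difference of the adult cells was that of ES cells was tested gene by gene, as the adult minus the ES difference. It was called for 8588 genes, 43.1% of those tested. Of the 708 genes at least 2-fold higher in adult Stra8, 84 (11.9%) were also at least 2-fold higher in ES Stra8, which is 37.5% of the 224 such genes there, and 80 (11.3%) were at least 2-fold lower in ES Stra8, out of 681. For 620 of the 708 the adult difference was more positive than that in ES cells, and for 80 the test made no call. Over all 19938 genes the test was positive for 4243. The 708 were chosen by their adult difference, which is part of the test, so the choice itself favours a positive result. Of the 266 lower genes 18 (6.77%) were at least 2-fold lower in ES Stra8 as well and 5 were at least 2-fold higher there. For 244 of the 266 the adult difference was more negative than that in ES cells, and for 17 the test made no call. Over all genes the test was negative for 4345, and here too the choice favours the result. Across 19938 genes, read on separate arrays that may have been normalised together, the differences in adult and ES cells had r = 0.12 (Spearman's rho 0.18).

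Some genes differed in the same direction in both cell types. Nr1h5, Sycp1, Lncpint, Kcnt2, Meioc and Cdc14a were more than 2-fold higher in the Stra8 background in both, with a larger difference in adult cells by the test of adult minus ES difference (limma adjusted p from 5.95e-10 for Lncpint to 0.001459 for Meioc). Lefty2 was higher by 1.74 in adult and 2.56 in ES cells, Rian by 1.40 and 1.55, and Rif1 by 1.00 and 0.87. Castor1 (-2.37 and -1.01), Bmp4 (-1.42 and -1.13), Etv4 (-1.61 and -1.11) and Sfmbt2 (-1.15 and -1.27) were more than 2-fold lower in both. The size differed for Lefty2, Castor1 and Etv4 (limma adjusted p = 2.13e-06, 4.63e-09 and 0.009338). For Rian, Rif1, Bmp4 and Sfmbt2 the same test made no call (limma adjusted p = 0.2487, 0.613, 0.1016 and 0.3459).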

How the data were processed

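The 18 RNA samples were each hybridised to 1 array. The authors deposited log2 signals per probe set, and the submitters' processing notes name RMA and Affymetrix Expression Console. A joint normalisation of the 18 arrays is not given in the sources used here. The values were used as deposited. Genes were named from the platform annotation, probe sets with several symbols were left out, and the brightest probe set stood for each gene. One mean per group was fitted with limma 3.58.1 in R 4.3.3 over all 18 arrays (12 residual degrees of freedom), and p-values were adjusted by Benjamini-Hochberg over 19938 genes. An exact permutation test of 3 arrays against 3 cannot give a p below 0.1. The number of arrays limits the precision. Replicate numbers did not pair samples of the adult groups (correlations of deviations -0.03, -0.03 and -0.15).

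The members and the 37 gene lists (947 symbols, 844 measured) were chosen with earlier results of these data known. Named by rule were the 15 highest and 15 lowest genes among those called, at least 2-fold different and without overlap of the arrays. The rule also named up to 4 members per list, a fixed set of stem and germ cell genes and runs of at least 3 neighbours. It further named the 10 genes with the most positive and the 10 with the most negative adult minus ES difference. Every other gene was named after its value was seen. The fit was tested on simulated data.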

Additional observations from a re-analysis of the deposited data

Results flagged for a closer look

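The difference between backgrounds itself differed between adult and ES cells for 8588 genes, 43.1% of those tested (limma test of adult minus ES difference, Benjamini-Hochberg). Among them were 159 of the 194 named genes that were called in adult cells. Named genes include the extremes of this same test and of the adult difference, so the choice itself raises their share. The 10 most positive values, on the log2 scale, were those of Cxcl10 (6.29), Srgn (6.07), Ifit3 (6.01), Irf7 (5.89), Cubn (5.49), Ifit3b (5.46), Ifi203 (5.43), Trim30a (5.34), Usp18 (5.33) and Lcn2 (5.20). In each of these 10 the adult difference was positive and the ES difference negative. The 10 most negative were Calcoco2 (-3.71), Snord118 (-3.07), Dppa3 (-3.05), Tubb3 (-2.74), Enpp3 (-2.68), Snord42a (-2.61), Pnma5 (-2.60), AU015836 (-2.55), Mest (-2.46) and Mir495 (-2.40). Groups of 3 arrays are too small for a search for single outlying arrays.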

How the results depend on the processing

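The counts of called genes and of genes at least 2-fold higher or lower stayed within 1.5 times their value under other normalisations, probe set rules, filters, fits and with each array left out. The exception was the omission of chromosomes 8 and 11, chosen after seeing the data, which left 158 genes at least 2-fold lower in place of 266, and 232 in place of 458 with an adult minus ES difference at least 2-fold lower. That setting tests fewer genes. The fit of array weights stopped before it converged. With the replicate block 10225 genes were called, 4824 higher and 5401 lower, and the counts at least 2-fold higher and lower were 708 and 266. Of 198 named genes 189 kept their side of the threshold under every alternative. Igf2 was called only when the arrays were quantile normalised (limma adjusted p = 0.0273) or without adult Stra8 replicate 1 (0.0400). Counts within lists moved by more than 1.5 times in 58 cases and stayed within it in 1052, and most that moved were counts under 10. Dim probe sets limit what can be read for low genes, since no detection call was available.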
